A study of Mus musculus with 4 samples.

Results

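The Schwann cell and myelin transcripts described here are Pmp22, Mbp, Mag, S100b, Apod, Egr2, Gjb1 and Cnp, measured in RNA of mouse skeletal muscle. They were taken by name: every probe set of the array whose single gene symbol in the platform's gene table is 1 of these 8 symbols. These are 8 of the 8251 genes that the table names singly, and they have 11 of the 12488 probe sets on the array, with 2 each for Pmp22, Mbp and Mag and 1 each for the other 5 genes. A probe set is a group of short oligonucleotides that together report 1 transcript, and its signal is a brightness with no absolute unit.

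The study hybridised muscle RNA to 4 arrays under a series title that names the neuromuscular junction, the synapse of motor nerve and muscle fibre. J arrays (replicates 1a and 1c) were set against NJ arrays (replicates 1a and 1d), all at 0 h and all with the code Ctr in their titles. The labels do not spell out J, NJ or Ctr and name no strain, age, genotype or agent. Nothing in them says that arrays of a group came from different animals, so p-values measure only the spread between these arrays, which may be technical.

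Schwann cells are the glia of peripheral nerve. Those on large axons wrap them in myelin, a stack of membrane that speeds conduction, while the terminal Schwann cells at the neuromuscular junction cover the nerve ending and make no myelin. Myelin has a compact part, held together by proteins such as Mbp and Pmp22, and channels of non-compact membrane that carry Mag, Gjb1 and Cnp. Egr2 is the transcription factor that drives the myelin genes, and S100b and Apod are used as markers of Schwann cells in general. These markers are not restricted to Schwann cells: S100b, Apod, Pmp22 and Egr2 are also known from other cells of muscle and connective tissue. In whole-tissue RNA, fewer cells of a type and less RNA per cell cannot be told apart.

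The arrays as deposited had nearly equal trimmed means, with median signals of 376 and 300.4 in J and 366 and 280.2 in NJ. Most muscle fibre genes were bright, while Myh2 was dim, with signals of 32.9 to 85.5. All 14 markers had a probe set. Their summed signal was 1293178 on J 1a and 247022 on J 1c, against 1050823 on NJ 1a and 785575 on NJ 1d. Array J 1c was the lowest in fibre transcripts, and its highest signal of any probe set was 41086, against 125534 to 231943 on the other arrays. Values are therefore also given without that array in the comparison, although it stayed in the normalisation. The deposited values of both 1a arrays carry full digits, while those of J 1c and NJ 1d stop at 1 decimal. Differences were therefore also taken within each number format: the 1a pair is J 1a minus NJ 1a, and the other pair is J 1c minus NJ 1d.

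Levels are given first as the log2 of signal plus 32, minus the median of all probe sets of the same array that are not controls, so that 0 is the middle of an array. On this scale 3 member probe sets lay above the array median on all 4 arrays, 3 lay below it on all 4, and 5 crossed it. Always above were both Mbp probe sets and the Mag probe set 161846_r_at, and always below were S100b, the Pmp22 probe set 161442_at and the Mag probe set 102405_at. The median member level was 0.36 on J 1a and 0.56 on J 1c, against 0.19 on NJ 1a and −0.65 on NJ 1d. All member signals were between 17.1 and 1577 and none was listed at 0. The label of the group rests on the 8 genes themselves and on Sox10. Sox10, the transcription factor that defines the lineage, had signals of 967 and 1607 on the J arrays, against 1496 and 1215 on the NJ arrays at its brighter probe set, a difference of −0.19 ± 0.47. The dimmer Sox10 probe set had 179 and 81.2 on the J arrays, against 333 and 117 on the NJ arrays. It lay below the median on all 4 arrays, with a difference of −0.66 ± 0.79.

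**Figure D1:**
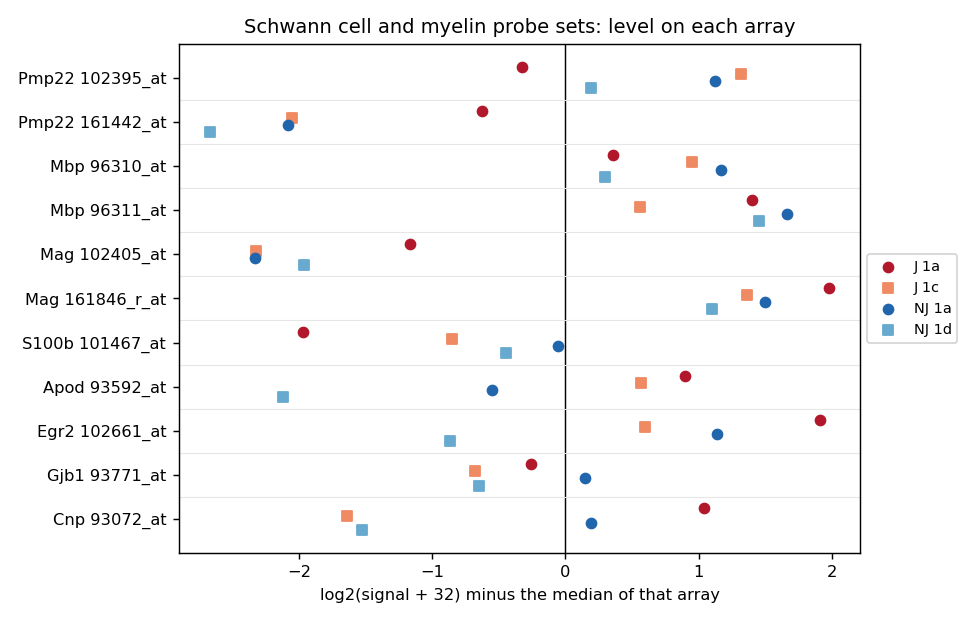
Level of each of the 11 member probe sets on each array, as log2 of signal plus 32 minus the array's own median, with J 1a and J 1c in red and orange and NJ 1a and NJ 1d in dark and light blue. Apod is above the median on both J arrays and below it on both NJ arrays, while Cnp is above it on both 1a arrays and below it on the other 2.

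In J, Apod lay above and S100b below every NJ array, and neither passed the test across all probe sets. Apod encodes apolipoprotein D, a small carrier of lipids that Schwann cells and the fibroblasts of nerve secrete. Its signals were 728 and 462 on the J arrays, against 240 and 39.6 on the NJ arrays, so the groups did not overlap. After quantile normalisation its log2 level was 9.26 ± 0.33 in J and 7.17 ± 1.05 in NJ (SD, n = 2 each). The difference, J minus NJ ± the standard error that limma gave, was 2.09 ± 0.84, or 4.25-fold. NJ 1d was by far the lowest array, and without it the difference was 1.35. It was 2.32 without J 1c, 1.58 in the 1a pair and 2.59 in the other pair. Apod had the smallest unadjusted limma p of the members, which placed it at rank 113 of the 9317 probe sets tested. Its limma adjusted p was 0.999, by Benjamini-Hochberg over all of them.

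S100b encodes a calcium-binding protein that is abundant in the cytoplasm of Schwann cells, terminal ones included, and is also made by fat cells. Its signals were 72.1 and 153 on the J arrays, against 351 and 197 on the NJ arrays, with J 1a the lowest array. The log2 level was 7.08 ± 0.83 in J and 8.25 ± 0.25 in NJ (SD, n = 2 each). J minus NJ was −1.18 ± 0.81, a level 2.26-fold higher in NJ (limma adjusted p = 0.999). It was −1.95 in the 1a pair and −0.41 in the other pair. Without J 1a it was −0.59 and without J 1c −1.77. Apod and S100b thus lay on opposite sides in J on the same 4 arrays.

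The promoter windows of Apod and S100b are shown because they are the tested members whose J and NJ arrays did not overlap. Each runs from 250 bases before to 50 bases after the gene start in RefSeq on GRCm38.p6 and is written 5′ to 3′ on the gene's own strand. Capitals mark ACAAAG, a core bound by Sox factors, and GTGGGNG, part of the site of Egr factors, both searched on both strands. The Apod window is chr16:31314759-31315058 on the minus strand and the S100b window chr10:76253586-76253885 on the plus strand.
Apod: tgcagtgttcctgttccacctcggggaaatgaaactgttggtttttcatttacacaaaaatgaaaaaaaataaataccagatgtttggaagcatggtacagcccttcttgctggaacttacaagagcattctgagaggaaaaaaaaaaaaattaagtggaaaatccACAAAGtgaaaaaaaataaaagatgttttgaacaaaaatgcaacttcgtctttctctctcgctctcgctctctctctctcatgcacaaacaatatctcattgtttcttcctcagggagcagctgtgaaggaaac
S100b: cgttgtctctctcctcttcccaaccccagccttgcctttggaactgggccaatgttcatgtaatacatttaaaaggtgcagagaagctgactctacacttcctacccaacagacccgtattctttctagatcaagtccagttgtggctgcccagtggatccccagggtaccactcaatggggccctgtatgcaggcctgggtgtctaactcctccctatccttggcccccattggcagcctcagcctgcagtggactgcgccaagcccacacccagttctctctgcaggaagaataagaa
The Apod window holds 1 match to ACAAAG, 84 bases before the start, and none to GTGGGNG, and 37.3% of its bases are G or C. The S100b window holds neither motif and has 53.7% G or C, beside a median of 52.7% over all windows. Of the 32851 windows searched, 18.7% hold ACAAAG and 31.6% hold GTGGGNG, so a match is a common feature and a description of letters only.

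Of the 3 tested probe sets of compact myelin genes, Mbp 96311_at was lower in J in both pairs, while Mbp 96310_at and Pmp22 102395_at changed sign between pairs. Mbp, myelin basic protein, binds the inner faces of the myelin membrane together. At probe set 96311_at its signals were 1045 and 459 on the J arrays, against 1227 and 818 on the NJ arrays, so that the groups overlapped and J 1c was lowest. The difference was −0.53 ± 0.57, made of −0.26 in the 1a pair and −0.79 in the other pair. Without J 1a it was −1.04, and without J 1c it was −0.01. At probe set 96310_at the signals were 490 and 610 on the J arrays, against 865 and 351 on the NJ arrays, with both J arrays between the NJ arrays. Here J minus NJ was −0.15 ± 0.66, made of −0.90 in the 1a pair and 0.61 in the other pair, and it was −0.39 without J 1c. The probe sets of Mbp had the same sign in the mean but did not order the arrays alike.

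Pmp22 encodes a membrane-spanning protein of compact myelin, and extra or missing copies of its human counterpart cause inherited neuropathy. The gene is also expressed in resting fibroblasts. At probe set 102395_at its signals were 292 and 798 on the J arrays, against 832 and 323 on the NJ arrays, with 1 high and 1 low array in each group. The difference was −0.27 ± 0.77, made of −1.57 in the 1a pair and 1.04 in the other pair. Without J 1c it was −1.04, and without J 1a it was 0.51. The other probe set, 161442_at, was dim, with signals of 232 and 48.4 on the J arrays, against 62.3 and 17.1 on the NJ arrays. It lay under the filter on low values (a mean log2 of 6.63 against a limit of 7.22) and was not tested. Its difference of 1.04 had the opposite sign to that of the brighter probe set, and the arrays of J and NJ overlapped in deposited signal but not after quantile normalisation.

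Among genes of non-compact myelin, Mag, an adhesion molecule on the membrane that faces the axon, had 1 probe set well above the array median and 1 well below it. Probe set 161846_r_at had signals of 1577 and 820 on the J arrays, against 1096 and 638 on the NJ arrays, and J minus NJ came to 0.38 ± 0.54 with overlapping groups. It was 0.83 without J 1c and −0.07 without J 1a. At the other Mag probe set, 102405_at, signals were 149 and 34.7 on the J arrays, against 47.2 and 48.2 on the NJ arrays. J 1a alone stood out there, and the set was too dim to test (mean log2 6.55). Gjb1 encodes a connexin that forms gap junctions between the layers of a myelin sheath and is also abundant in liver. Its signals were 307 and 176 on the J arrays, against 410 and 166 on the NJ arrays, again with both J arrays between the NJ arrays. Its difference was −0.24 ± 0.78, and −0.05 without J 1c.

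Cnp encodes a cyclic nucleotide phosphodiesterase bound to the myelin membrane and the cytoskeleton. Its signals were 807 and 74.7 on the J arrays, against 423 and 75.9 on the NJ arrays. Both 1a arrays were high and the other 2 were nearly equal and low, so arrays of the same group lay further apart than the groups. The signal on the 1a array was 10.8 times that on the other array within J and 5.58 times within NJ. J minus NJ was 0.40 ± 1.07, made of 0.95 in the 1a pair and −0.14 in the other pair. It was −1.0 without J 1a and 1.81 without J 1c, so the direction rested on single arrays.

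Egr2, the zinc finger factor that switches Schwann cells to making myelin, is also an immediate early gene that many cells induce for a short time on stimulation. Its signals were 1497 and 472 on the J arrays, against 846 and 139 on the NJ arrays. The groups overlapped, since NJ 1a was above J 1c, yet the J array was higher within each number format, by 0.83 in the 1a pair and 1.40 in the other pair. Over both pairs J minus NJ was 1.11 ± 0.84, or 2.16-fold (limma adjusted p = 0.999). It was 1.87 without J 1c and 0.07 without NJ 1d. As with Cnp, both 1a arrays were above the other 2, by 3.17-fold within J and 6.08-fold within NJ in deposited signal.

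Promoter windows of Egr2 and Cnp follow, since these members differed most between the number formats, with the same capitals as for Apod and S100b. The Egr2 window is the most upstream of 5 in the table, chr10:67535249-67535548 on the plus strand, and the Cnp window is chr11:100574689-100574988 on the plus strand.
Egr2: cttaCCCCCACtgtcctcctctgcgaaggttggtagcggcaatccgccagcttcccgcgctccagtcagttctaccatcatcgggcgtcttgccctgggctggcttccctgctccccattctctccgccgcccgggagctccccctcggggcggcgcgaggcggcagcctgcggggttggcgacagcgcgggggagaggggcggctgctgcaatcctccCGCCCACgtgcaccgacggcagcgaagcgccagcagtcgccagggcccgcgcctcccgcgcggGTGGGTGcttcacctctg
Cnp: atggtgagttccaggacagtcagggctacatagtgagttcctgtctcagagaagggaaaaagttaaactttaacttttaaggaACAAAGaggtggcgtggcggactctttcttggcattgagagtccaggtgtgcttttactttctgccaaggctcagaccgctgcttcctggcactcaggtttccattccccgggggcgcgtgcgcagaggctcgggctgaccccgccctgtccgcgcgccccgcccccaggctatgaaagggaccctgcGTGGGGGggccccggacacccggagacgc
The Egr2 window holds GTGGGNG at 3 places. Of these, 2 matches on the other strand begin 246 and 31 bases before the start, and 1 begins 32 bases after it. Among the Egr2 windows not shown, chr10:67537316-67537615 holds 1 match and the rest hold none. In the Cnp window 1 match begins 21 bases after the start, and 1 match to ACAAAG begins 167 bases before it. The table had windows for 7 of the 8 members, 19 in all, some of which overlap. GTGGGNG occurs in 6 of these windows, from Mag, Egr2, Gjb1 and Cnp, and ACAAAG in 6, from Mag, Apod, Gjb1 and Cnp.

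Across the members, 9 of the 11 probe sets, covering all 8 genes, were bright enough to test. Of these, 4 were higher and 5 lower in J. The median difference was −0.15, against −0.01 over all probe sets tested. Its sign turned with the arrays used: it was 0.36 without NJ 1a and −0.64 without NJ 1d, and −0.26 in the 1a pair and 0.26 in the other pair. With the brightest tested probe set of each of the 8 genes, 4 lay higher in J and 4 lower, and the median was 0.07. At an adjusted p under 0.05 limma called 0 members, where 0% of all 9317 probe sets were called. At an unadjusted p under 0.05 limma gave Apod alone, 1 of 9, where 2.14% of all probe sets passed. With single arrays left out, the difference of Apod ran from 1.35 to 2.83. Both J arrays were above both NJ arrays for 1 tested member (Apod) and below them for 1 (S100b), where the shares over all probe sets were 13.6% and 12.8%. The smallest p that an exact two-sided permutation test can reach with this design is 0.333. The median size of the difference, leaving out its sign, was 0.40 for the members and 0.39 for all probe sets tested. Without NJ 1a the split was 7 higher and 2 lower, and without J 1c it was again 4 and 5.

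**Figure D2:**
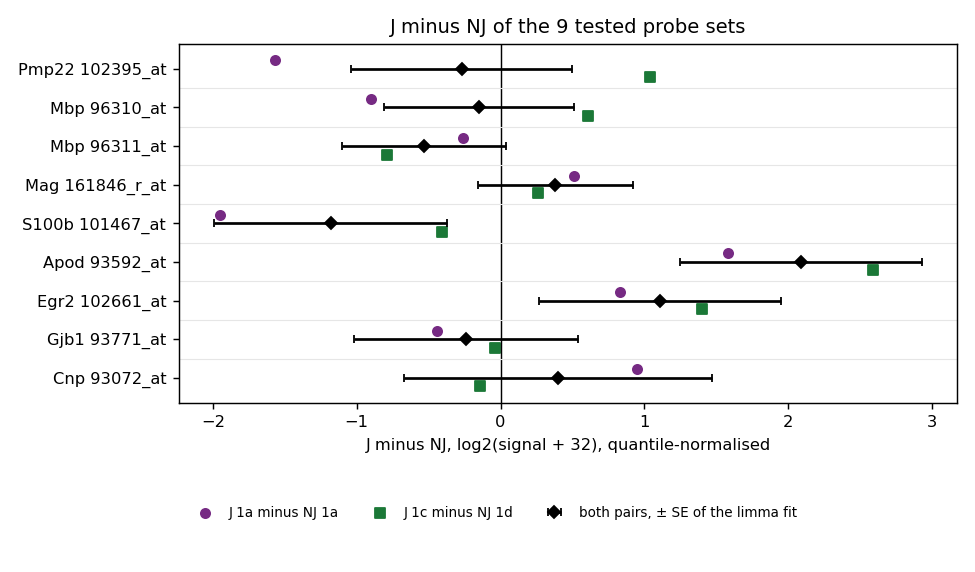
J minus NJ of the 9 tested probe sets on the log2 scale after quantile normalisation, with black diamonds for both pairs (bars are limma's standard error), purple circles for J 1a minus NJ 1a and green squares for J 1c minus NJ 1d. Apod, Egr2 and Mag lie above 0 in both pairs, S100b, Gjb1 and Mbp 96311_at lie below 0 in both, and Pmp22, Mbp 96310_at and Cnp change sign between pairs.

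Several myelin genes were higher on both 1a arrays than on the other arrays, whatever the group. Both 1a arrays lay above both others at 5 of the 9 tested probe sets (Mbp 96311_at, Mag 161846_r_at, Egr2, Gjb1 and Cnp), where 23.1% of all probe sets had both 1a arrays above. The median of 1a minus the other arrays was 0.78 for the members and −0.03 for all probe sets tested. In a limma fit with terms for group and number format, Cnp differed by 2.26 ± 0.83 between formats (limma adjusted p = 0.159) and Egr2 by 1.80 ± 0.65 (limma adjusted p = 0.146). This fit called 0 members for the format, where 1.6% of all probe sets were called. It called 0 members for J minus NJ, where 0.0859% were called, and the smallest member value was that of Apod (limma adjusted p = 0.635). The fit leaves 1 residual degree of freedom. Some muscle fibre markers were also higher on the 1a arrays in this fit, by 3.87 for Tnnc2 (limma adjusted p = 1.63e-08) and 1.62 for Atp2a1 (limma adjusted p = 0.0475) at their brightest probe sets. The value of Tnnc2 was made of 5.97 within J and 1.77 within NJ, and that of Atp2a1 of 2.79 within J and 0.45 within NJ. Another tested Atp2a1 probe set differed by 0.30 between formats (limma adjusted p = 0.799). The others of the 13 tested fibre genes ran from −0.74 for Myh1 to 1.19 for Myh4 at their brightest probe sets and were not called. Dimmer probe sets of Pvalb and Mylpf differed by 4.18 (limma adjusted p = 5.66e-11) and 1.81 (limma adjusted p = 0.000941), while the brightest ones of these genes had −0.70 and −0.30 and were not called. Tnnc2 also passed for J minus NJ in this fit, at −2.18 (limma adjusted p = 0.017), but its pairs differed. Its difference was −0.07 in the 1a pair and −4.28 in the other pair. The Tnnc2 signal was 1301 on J 1c, against 29568 to 145820 on the other arrays. With single arrays left out, its J minus NJ ran from −5.16 to 0.81. The part of fibre RNA in the values of the members was not tested. The sign of J minus NJ was the same within both formats at 6 of the 9 tested probe sets, where the share over all probe sets was 49.3%. Number format goes with the replicate label 1a, and these cannot be told apart.

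**Figure D3:**
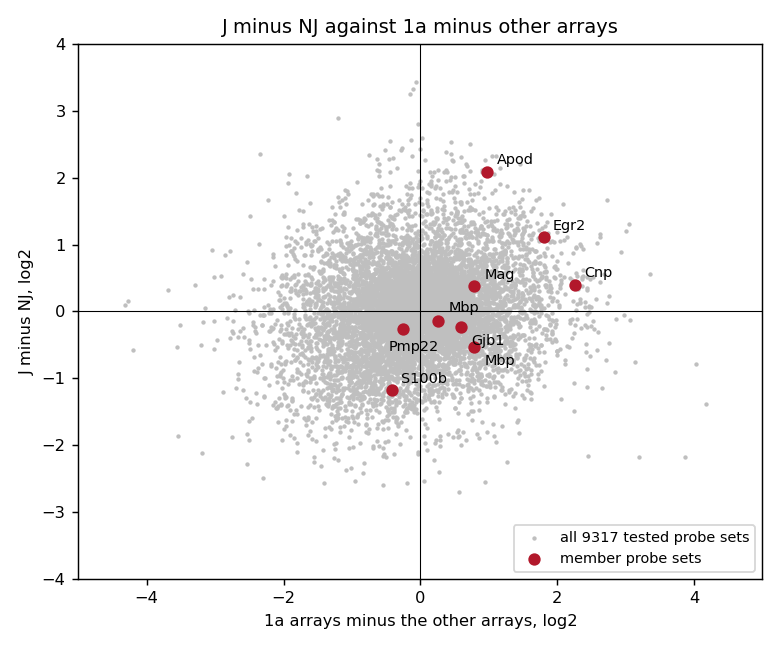
J minus NJ (vertical axis) against 1a minus the other arrays (horizontal axis), both log2 after quantile normalisation, for all 9317 tested probe sets in grey and the 9 member probe sets in red. Cnp at 2.26 and Egr2 at 1.80 lie far to the right, while Apod at 2.09 is the highest member.

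Other genes of myelin and of Schwann cells were read from 5 lists, with the brightest tested probe set standing for a gene. No gene of any list passed limma at an adjusted p under 0.05, and the medians lay between −0.24 and 0.29. In the order given below, both J arrays lay above both NJ arrays at 2 of 7, 2 of 13, 2 of 15, 2 of 9 and 1 of 12 tested genes. They lay below at 0, 1, 4, 0 and 1, where the shares over all probe sets were 13.6% and 12.8%. From each list the 2 genes with the smallest p are named, a choice that favours groups that do not overlap. Of 18 genes of myelin structure and membrane, 8 had a probe set and 7 were tested, 4 of them higher in J and 3 lower. Their median was 0.29, with 0.42 without J 1c and −0.04 without NJ 1d. Gpm6b, a membrane glycoprotein of neurons and glia, had signals of 577 and 466 on the J arrays, against 23.8 and 22.5 on the NJ arrays. Both J arrays were above both NJ arrays by a wide margin, and its difference of 3.25 ± 0.75 ranked 5 of all tested (limma adjusted p = 0.999). Cd82, a tetraspanin, had 1251 and 1005 on the J arrays, against 640 and 797 on the NJ arrays, and J minus NJ came to 0.60 ± 0.51, while another tested Cd82 probe set had 0.03. Neither gene is particular to Schwann cells.

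Transcription factors of the Schwann lineage and their partners were split, with 6 higher and 7 lower of 13 tested and a median of −0.19 that was 0.23 without J 1c. Id4, an inhibitor of helix-loop-helix factors, had 474 and 469 on the J arrays, against 127 and 312 on the NJ arrays, and J minus NJ came to 1.05 ± 0.81. Yy1, a zinc finger factor of broad expression, had 1493 and 2430 on the J arrays, against 2538 and 2971 on the NJ arrays, and J minus NJ came to −0.56 ± 0.41. Both genes had groups that did not overlap, in opposite directions, while a dimmer Yy1 probe set that was not tested had 0.38.

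Signals between axon and Schwann cell and their receptors had 7 higher and 8 lower of 15 tested, with a median of −0.24 that was 0.02 without J 1a. Lgi4, a secreted protein that Schwann cells need to myelinate, had 472 and 220 on the J arrays, against 266 and 90.6 on the NJ arrays, and J minus NJ came to 0.85 ± 0.80, with groups that overlapped in deposited signal but not after normalisation. Ncam1, an adhesion molecule of non-myelinating and terminal Schwann cells that muscle also makes, had 625 and 683 on the J arrays, against 250.1 and 493 on the NJ arrays, and J minus NJ came to 0.81 ± 0.71. Another tested Ncam1 probe set had −0.57. Erbb3, the receptor through which axonal neuregulin reaches Schwann cells, had 139 and 904 on the J arrays, against 525 and 344 on the NJ arrays. Its J arrays lay on both sides of the NJ arrays, and its difference of −0.36 ± 0.93 was −1.85 in the 1a pair and 1.13 in the other pair.

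Genes of immature or injured Schwann cells had 5 higher and 4 lower of 9 tested and a median of 0.10, which was −0.30 without J 1a, −0.21 without NJ 1d and 0.50 without J 1c. Shh, a secreted morphogen, had 227 and 582 on the J arrays, against 78.9 and 154 on the NJ arrays, and J minus NJ came to 1.36 ± 0.88 with groups that did not overlap. Ncam1, described above, is also in this list and came next by p. Gap43, a growth-associated protein of axons and non-myelinating Schwann cells, was named whatever its p. It had 226 and 162 on the J arrays, against 451 and 135 on the NJ arrays, and J minus NJ came to −0.44 ± 0.81. Enzymes of myelin lipid synthesis, which fat and other tissues share, had 8 higher and 4 lower of 12 tested and a median of 0.21 that was −0.02 without J 1c. Scd2, a fatty acid desaturase, had a J minus NJ of 1.0 ± 0.54 at the brightest of its probe sets and −0.54 at another. St3gal5, which starts the synthesis of gangliosides, had 965 and 1177 on the J arrays, against 2249 and 1636 on the NJ arrays, and J minus NJ came to −0.88 ± 0.44 with groups that did not overlap.

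**Figure D4:**
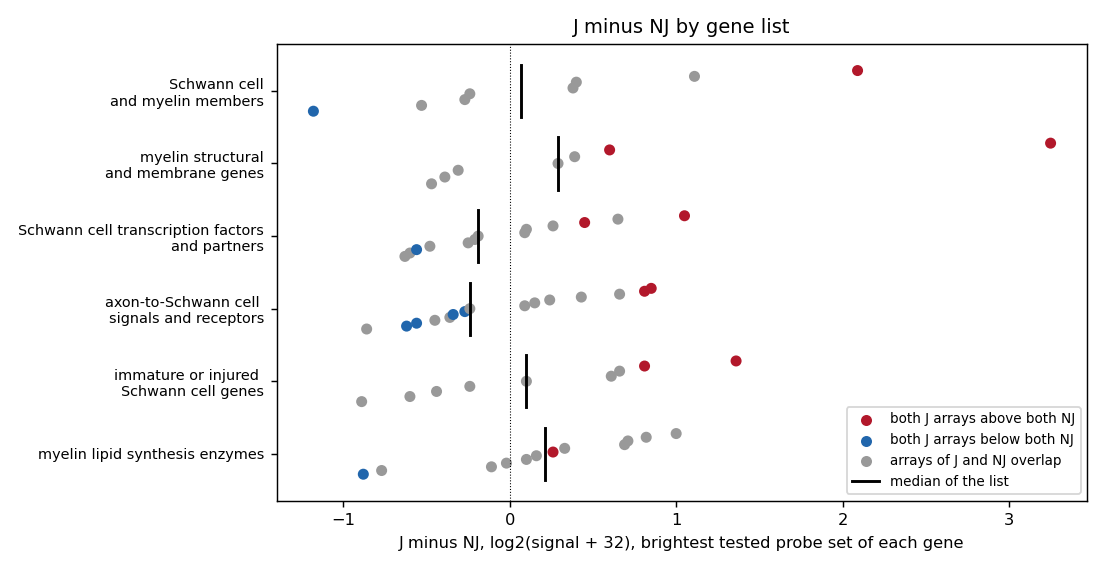
J minus NJ (log2) of the brightest tested probe set of each gene in the member group and the 5 lists, with 1 dot per gene, red where both J arrays were above both NJ arrays, blue where both were below, grey where the groups overlapped, and a black bar at the list's median. The medians stay within −0.24 to 0.29, and Gpm6b at 3.25 is the dot furthest right.

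Markers of other cells that express some of these genes were read on the same arrays, and none passed the test without a format term. Apod is also a fibroblast gene, and 8 of 10 fibroblast markers were higher in J, 3 of them with both J arrays above both NJ arrays, beside the 13.6% of all probe sets. Their median was 0.36, with 0.62 without J 1c and 0.21 without J 1a. Their summed signal was 112081 and 46281 on the J arrays, against 62948 and 53863 on the NJ arrays, ranges that overlap. Most of this sum was Dcn alone, with 82874 and 25304 on the J arrays, against 42425 and 36133 on the NJ arrays. Postn, the matrix protein periostin, was the fibroblast marker with the widest difference, at 3.43 ± 0.81, with 1311 and 700 on the J arrays, against 43.3 and 75.2 on the NJ arrays. S100b is also made by adipocytes, for which 3 of 7 markers were tested, 1 of them higher in J and 2 lower. The higher one was Adipoq, the fat cell hormone adiponectin, with 1295 and 1132 on the J arrays, against 335 and 246 on the NJ arrays. Its J minus NJ of 1.90 ± 0.59 was opposite in sign to S100b, while the 2 lower markers had the sign of S100b. For 1 of these 2, both J arrays were below both NJ arrays. The median of the 3 was −0.06, with 0.26 without J 1c and −0.37 without J 1a. The summed signal of the adipocyte markers was 5738 and 4456 on the J arrays, against 4749 and 4308 on the NJ arrays. For the genes high on the 1a arrays, the 11 markers of axon and nerve terminal summed to 17231 on J 1a and 10710 on J 1c, against 16365 on NJ 1a and 13282 on NJ 1d. Most of this sum was Mapt alone, with 8680 on J 1a and 6967 on J 1c, against 11800 on NJ 1a and 8722 on NJ 1d. Of the tested axon markers 4 were higher and 5 lower in J. Their median was −0.01, and 0.93 without J 1c. The 5 perineurial markers, from the sheath around nerve bundles, were dim, with a summed signal of 735 and 470 on the J arrays, against 841 and 447 on the NJ arrays, and 2 were tested. Markers of endothelium (2 higher and 4 lower), of macrophages and leukocytes (2 and 3) and of melanocytes (2 and 1) had medians of −0.10, −0.37 and 0.06. None of these medians was steady: that of endothelium was 0.24 without J 1c, that of macrophages and leukocytes −0.91 without J 1c and −0.05 without J 1a, and that of melanocytes −0.39 without J 1c, −0.72 without NJ 1d and 0.51 without J 1a. No marker was listed at 0, and the part of these cells in the values of the members was not tested.

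The probe sets whose 4 values ran most like those of a member were found by the root mean square difference of log2 values, each centred on its own mean over the 4 arrays. For Mag 161846_r_at, the brightest member, the nearest genes were Mrpl44 (0.023), Bin1 (0.035) and Psma2 (0.036), and 546 tested probe sets lay within 0.25. For Apod, the member with the widest range over the arrays (3.07 on the log2 scale), they were Spam1 (0.090), Pspc1 (0.145) and Ddx3x (0.205), and 5 lay within 0.25. With 4 arrays such likeness is a description of these arrays only.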

How the data were processed

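Of the submitters' work, only the deposited table was used: linear intensities, 1 for each probe set on each array, with 2% trimmed means of 800.5 to 800.6 in all 4 columns. The software behind these intensities is not given in the sources used here. Gene symbols came from the platform's table. Among the 12488 probe sets, 66 were controls and were left out of the tests.

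Intensities were taken as log2(signal + 32) and quantile normalised. The 9317 probe sets with a mean above the 25th percentile were tested with limma 3.58.1 in R 4.3.3 (intensity trend, 2 residual degrees of freedom), with Benjamini-Hochberg adjustment over all of them and a threshold of 0.05. The log2(signal + 32) scale understates changes of dim genes. With 2 arrays a group, the number of arrays limits the precision. Where an array was left out, it was dropped after the normalisation and the filter, which used all arrays. Levels against the array median used deposited values.

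Named were all member probe sets, the 2 genes of each list with the smallest p, Sox10, Erbb3 and Gap43. The nearest 3 genes by likeness were also named, and markers only as checks. Postn, Adipoq and the named fibre genes were picked after their values were seen. The members, lists and settings were chosen with earlier results of these data known. Promoter windows came from RefSeq, with motifs searched as exact letters. Figures used matplotlib 3.10.9.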

Additional observations from a re-analysis of the deposited data

How the results depend on the processing

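The alternatives were the deposited scale, median centring, a pseudocount of 1 or 100, dropping the filter or moving it to the median, no intensity trend, each array left out in turn, and number format as a term or within each format. With the format term limma called 8 probe sets, none of them a member, against 0 in every other setting. At an unadjusted p under 0.05 limma gave 199 probe sets in the main setting, 882 without J 1c, 555 with the format term, 298 without the filter, 105 without NJ 1a and 102 with the filter at the median. Leaving out arrays turned the direction of Pmp22 102395_at (−1.04 to 0.51), Mbp 96310_at (−0.65 to 0.36), Mag 161846_r_at (−0.07 to 0.83), Gjb1 (−0.64 to 0.15) and Cnp (−1.0 to 1.81). Apod (1.35 to 2.83), Egr2 (0.07 to 2.16), S100b (−1.77 to −0.59) and Mbp 96311_at (−1.04 to −0.01) kept theirs. The unadjusted p of Apod in limma ranged from 0.014 with the format term to 0.208 without NJ 1d. With the filter at the median 5 members were tested, without Apod, S100b, Gjb1 and Cnp. The median of the myelin structure list was 0 with a pseudocount of 1. No paired analysis was possible because the groups share only the label 1a and no label pairs J 1c with NJ 1d. The format term sets the arrays in the same pairs, so its 8 calls are what a fit on those pairs gives.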
